A study of Schizosaccharomyces pombe with 2 samples.

Results

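The genes near the ends of chromosome II of fission yeast (Schizosaccharomyces pombe) were compared between a tup11,12D mutant and a wild type (WT). Members were the array features whose names begin with 1 of 8 cosmid names from these regions, less 7 features set aside by name, which left 51 of 4956 gene features. The names on the arrays matched 5 of the 8 cosmids: 19 members came from SPBPB2B2, 14 from SPAC1348, 9 from SPBC1683, 7 from SPBPB10D8 and 2 from SPBC359. In the ASM294v3 gene table SPBPB2B2 lies at the right end of the chromosome, and SPBPB10D8, SPBC359 and SPBC1683 lie at the left end. The table does not list the SPAC1348 names; it has genes numbered in the same way under SPBC1348 at the left end, but the pairing was not verified and these features keep their array names. The table matched 34 members and gave a symbol for 15 of them. Members without a symbol are described by name alone.

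Both strains were compared directly on 2 spotted arrays with swapped dyes, so each ratio is a within-array comparison and n = 2 throughout. On array 1 the mutant was labelled with Cy3 and the WT with Cy5, and on array 2 the reverse. Each array received its own RNA preparation from cultures in logarithmic growth in rich medium, named YES with a temperature of 30 °C in the label of array 1. The mutant is marked with a D in both genes, read here as a double deletion, and the strains' further genotype is not given in the sources used here. Whether the preparations came from separate cultures is not stated, so p-values may measure technical spread alone. The scanner tables name no strain for their channels. Taking the first one for the mutant is the likely reading, since the sample titles name the mutant over the WT. The authors' deposited ratios correlated positively with the first over the second channel, at 0.777 on array 1 and 0.946 on array 2. This holds only if the titles give the direction of those ratios, and the channel backgrounds do not name the strain. If the first channel were the WT, every direction given here would turn.

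Tup11 and Tup12 are related corepressors, counterparts of budding yeast Tup1. They are recruited by DNA-binding proteins, often together with Ssn6, and lower the transcription of their target genes. The ends of chromosomes in this yeast hold heterochromatin and a region next to it in which many genes are kept quiet in rich medium and respond to starvation or stress. Genes there include transporters, enzymes for unusual carbon sources and gene families with near copies at other chromosome ends. Laboratory strains of fission yeast do not grow on galactose, although they carry the galactose genes, which sit at the right end of chromosome II.

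Median gene signals ran from 1339 to 4343 intensity units across the 4 array channels. Over all 4813 features tested, 157 were called by limma at an adjusted p under 0.05, of which 112 were higher and 45 lower in the mutant. A feature named tup1, matched to no gene of the table, stood at -2.11 ± 0.36 (mean log2 ratio of mutant over WT ± SD, n = 2, limma adjusted p = 0.000528). The tup11 feature stood at 0.95 on array 1 and -0.11 on array 2 (limma adjusted p = 0.491). These features do not settle whether the genes were deleted, since a probe can lie outside a deleted part.

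Of 48 members tested, 3 rose in the mutant, 2 fell and 43 did not pass. They were mug14, SPBPB2B2.06c and SPAC1348.13 among those that rose, and SPBPB2B2.19c and SPBPB2B2.20c among those that fell. This is 10.4% of the members, against 3.26% of all features called in either direction, 2.33% called higher and 0.935% called lower. The other features of chromosome II had 46 calls among 1630 (2.82%). Features from cosmids at the ends of chromosome I had 10 calls among 68 (14.7%), 4 higher and 6 lower. These shares are descriptions, and no difference between the lists was tested. Counts depended on the normalisation: the members that rose numbered 1 to 4 and those that fell 0 to 4 over 12 other settings, while all calls ran from 38 to 370.

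The median log2 ratio of the 48 members was 0.08, beside 0.0069 over all features tested, and 37 of the 48 lay within 0.5 of 0 (77.1%, against 86% of all features). An unadjusted p under 0.05 was reached by 12 of the 48 members, 5 higher and 7 lower, and by 771 of all 4813 features. On the single arrays the members' median was -0.0036 on array 1 and 0.0027 on array 2. Both arrays gave the same sign for 36 members, 18 up and 18 down, or 75% against 59.8% of all features. As a count with no test, mug14 and SPBPB2B2.06c were at least 2-fold higher on each array, as 1.52% of all features were. SPBPB2B2.19c alone was at least 2-fold lower on each, as were 0.374% of all features, and 1.89% of all features moved that far either way. Each ratio compares whole cultures, in which fewer cells with a transcript and less of it per cell cannot be told apart.

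**Figure D1:**
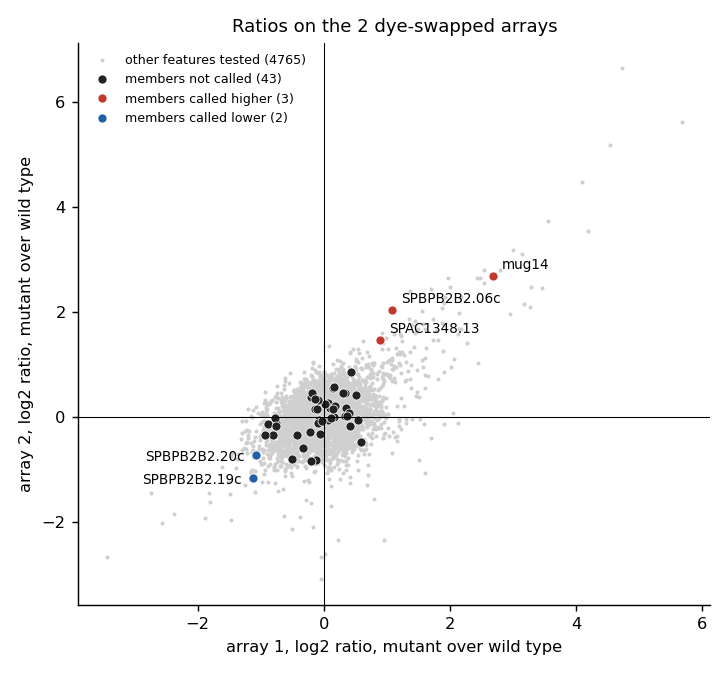
Log2 ratios of mutant over WT on array 1 (horizontal) and array 2 (vertical) for each feature tested, with the 48 tested members as large points, red where called higher, blue where called lower. The 5 called members lie in the corners where both arrays share a sign, and mug14 is the farthest out, at 2.68 on both arrays.

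Many of these genes gave little signal in either strain. A signal counted as well above background where it was higher than 95% of the 96 bacterial control spots in that channel. Neither strain passed on either array for 16 of the 48 members (33.3%), against 592 of all 4813 features (12.3%) and 33 of 68 at the ends of chromosome I (48.5%). Both strains passed on both arrays for 18 members (37.5%), against 64.8% of all features. In the mutant 31 of all 51 members passed on array 1 and 26 on array 2, and in the WT 31 and 25. The counts for the 2 strains differed by at most 1 member on an array. Over all features the WT passed more often than the mutant, at 82.8% against 76.5% on array 1 and 77.6% against 71.9% on array 2. A ratio of dim signals is compressed towards 0, so for the 16 dim members a small ratio does not show equal expression.

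**Figure D2:**
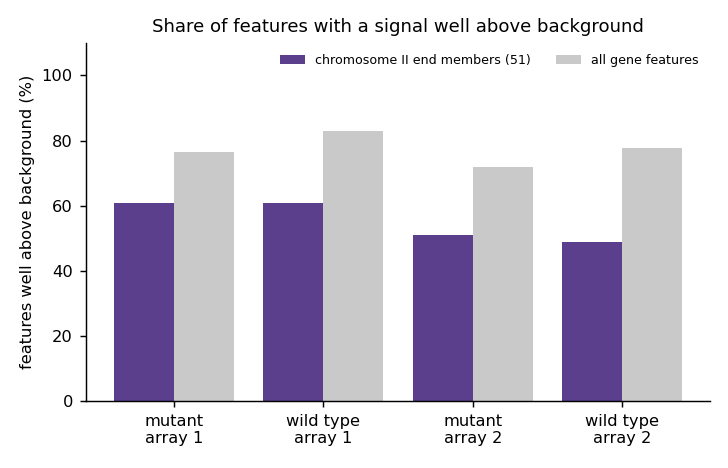
Share of features (percent) with a signal well above background in each strain and array, for the 51 members (purple) and all gene features (grey). Members pass less often in each channel, at 49.0 to 60.8% against 71.9 to 82.8%. The members' bars for mutant and WT of one array differ little. Over all features the WT bar is the higher one on both arrays.

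A single member was above background on both arrays in the mutant and on neither in the WT, a pattern held by 0.353% of all features. It was mug14 (SPBC359.06), whose name comes from a screen for genes raised in meiosis. Its background-subtracted signal was 3499 in the mutant and 1334 in the WT on array 1, where the WT needed 1659 to pass. On array 2 it was 4676 in the mutant and 272 in the WT, where the WT needed 488. Its log2 ratio was 2.68 on both arrays (2.68 ± 0.0048, SD, n = 2, limma adjusted p = 8.40e-05), or 6.41-fold with the WT taken at its measured signal. The 95% interval of the log2 ratio ran from 2.24 to 3.12, with a lower end of 4.72-fold, and the WT signal, which did not pass the background limit, may overstate the WT level. The near identity of the arrays understates the error, because the 4 single spots lay between 2.12 and 3.25. The gene was called in all 12 other settings, with ratios from 2.24 to 3.13.

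The gene mug14 is number 38 of the protein-coding genes from the left end. It lies between abc3 (SPBC359.05), set aside from the list, and pho841, named after the budding yeast phosphate transporter Pho84. The ratio of abc3 was 1.38 on array 1 and 0.56 on array 2 (limma adjusted p = 0.0656, not called). The gene pho841 gave 0.80 on array 1, while both its spots on array 2 carried quality code 3 and were left out of the test. With such spots kept, pho841 stood at 0.80 and -0.02, so the arrays disagreed. On the far side of pho841, SPBC1683.02 stood at 0.24 ± 0.23 and was not called (adjusted p = 0.641 with limma). Of the genes next to mug14, then, abc3 was not called and pho841 had no test. In the table mug14 also overlaps 2 non-coding RNA genes, by 937 and 117 bases, which a spotted DNA probe may not tell from it.

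SPBPB2B2.06c, number 19 of the protein-coding genes from the right end, rose 2.95-fold. Its log2 ratio was 1.08 on array 1 and 2.04 on array 2 (1.56 ± 0.67, SD, n = 2, limma adjusted p = 0.00885). All 4 channel signals were well above background. The 3 spots kept gave 1.08, 1.26 and 2.81, so the size of the rise varied more between spots than for any other called member. The call was lost with plain background subtraction (log2 ratio 1.68, adjusted p = 0.106) and with median centring in limma (log2 ratio 1.58, adjusted p = 0.311). Its neighbours in gene order were not called. SPBPB2B2.05 stood at 0.12 ± 0.29 and SPBPB2B2.07c at -0.51 ± 0.45 (limma adjusted p = 0.838 and 0.299). SPBPB2B2.07c was the only member above background on both arrays in the WT and on neither in the mutant, a pattern held by 94 of all features (1.95%), but its spots on array 2 disagreed, at 0.14 and -1.81.

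**Figure D3:**
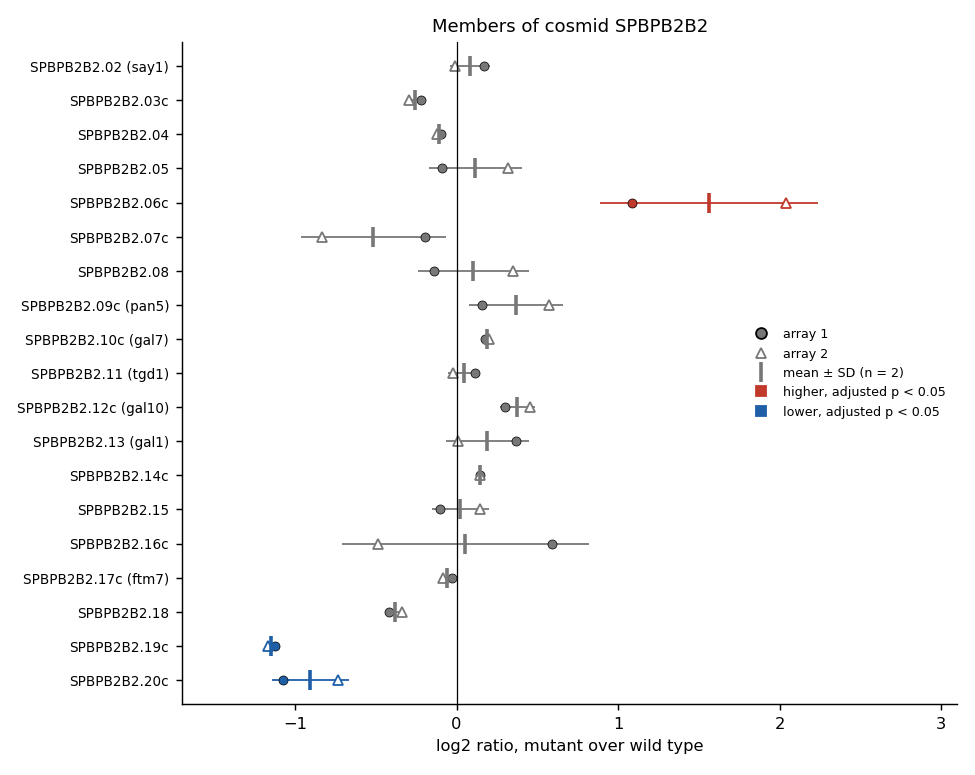
Log2 ratio of mutant over WT (horizontal) for the 19 members of cosmid SPBPB2B2 in the order of their numbers, with array 1 as circles, array 2 as triangles and the mean ± SD of both as bars. SPBPB2B2.06c stands apart at 1.56, the galactose genes lie close to 0, and the last 3 members are all below 0.

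The galactose genes follow further along the same cosmid. In the pathway gal1 encodes galactokinase, gal7 the uridylyltransferase and gal10 the epimerase, which together bring galactose into glycolysis. None of the 3 was called by limma, and none reached an unadjusted p of 0.05. The ratio of gal1 (SPBPB2B2.13) was 0.37 on array 1 and 0.01 on array 2 (0.19 ± 0.25), and its 95% interval ran from -0.27 to 0.65. That of gal7 (SPBPB2B2.10c) was 0.18 and 0.20 (0.19 ± 0.016, interval -0.25 to 0.63). That of gal10 (SPBPB2B2.12c) was 0.30 and 0.45 (0.38 ± 0.11, interval -0.07 to 0.82). All 3 ratios were above 0 on both arrays, but each interval holds 0. With median centring the ratio of gal7 turned to -0.21, and over the other settings it ran up to 0.68.

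The signal behind these genes was weak, so the intervals set no limit on a change in their RNA. Neither strain passed for gal7 on either array. For gal1 both strains passed on array 1 and neither on array 2, and for gal10 the mutant passed on both arrays and the WT on 1. The gene tgd1 (SPBPB2B2.11) overlaps gal10 by 3291 bases in the table, and the probes may not tell them apart. The tgd1 feature was well above background throughout and stood at 0.05 ± 0.10. On either side of them, pan5 stood at 0.37 ± 0.29 and SPBPB2B2.14c at 0.15 ± 0.0015, and neither was called. In budding yeast Pan5 makes a precursor of pantothenate. At the start of the cosmid, say1, whose budding yeast counterpart removes acetyl groups from sterols, stood at 0.08 ± 0.13, next to nrg1 (SPBPB2B2.01), which was called higher at 2.96 ± 0.72 (limma adjusted p = 0.000231) and is set aside from the list.

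Towards the end of the chromosome the ratios of the same cosmid were below 0. SPBPB2B2.19c, number 6 of the protein-coding genes from the right end, fell 2.21-fold. Its log2 ratio was -1.12 on array 1 and -1.17 on array 2 (-1.15 ± 0.033, SD, n = 2, limma adjusted p = 0.0132), with all 4 channel signals above background. Its 4 spots lay between -1.30 and -1.04, the narrowest range of the called members. It ranked 20th lowest of the 4813 features. The call was lost with plain background subtraction (adjusted p = 0.0873), with median centring (adjusted p = 0.999958) and with the authors' deposited values (limma adjusted p = 0.104), although the ratio stayed between -1.26 and -0.98 in all 12 other settings.

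SPBPB2B2.20c also fell, with log2 ratios of -1.07 and -0.73 (-0.90 ± 0.24, SD, n = 2, limma adjusted p = 0.0471). Neither strain was well above background on either array, so no fold is given. It was called in 7 of the 11 other settings that tested it, and its ratio ran from -1.80 to -0.70. The name is not in the gene table, so its place next to SPBPB2B2.19c rests on the cosmid number alone. SPBPB2B2.18, which overlaps SPBPB2B2.19c by 12 bases, stood at -0.38 ± 0.058 (limma adjusted p = 0.396) with no signal well above background. Before it, ftm7 (SPBPB2B2.17c) stood at -0.06 ± 0.042, also without a signal well above background. SPBPB2B2.16c had the arrays furthest apart, at 0.59 and -0.49.

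Among the SPAC1348 features 1 of 13 tested was called, SPAC1348.13, which rose 2.26-fold. Its log2 ratio was 0.90 on array 1 and 1.46 on array 2 (1.18 ± 0.40, SD, n = 2, limma adjusted p = 0.0182). All 4 channel signals were well above background, and the 3 spots kept gave 0.90, 1.17 and 1.75. The call was lost with plain background subtraction (adjusted p = 0.132), median centring (adjusted p = 0.717) and the authors' deposited values (limma adjusted p = 0.105), while the ratio stayed between 1.17 and 1.38. SPAC1348.14c, the next by number, gave 0.51 and 0.42 without a call (0.47 ± 0.065, limma adjusted p = 0.285). The members numbered first leaned the other way: SPAC1348.01 stood at -0.46 ± 0.18 and SPAC1348.02 at -0.58 ± 0.32 (limma adjusted p = 0.30 and 0.211). The other 9 tested lay between 0.0013 and 0.39. SPAC1348.08c was bright, with a saturated spot, which compresses its ratio of 0.16 ± 0.14. SPAC1348.10c had quality code 3 on array 1 and was not tested; it gave -0.85 on array 2, and -0.01 on array 1 when such spots were kept.

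**Figure D4:**
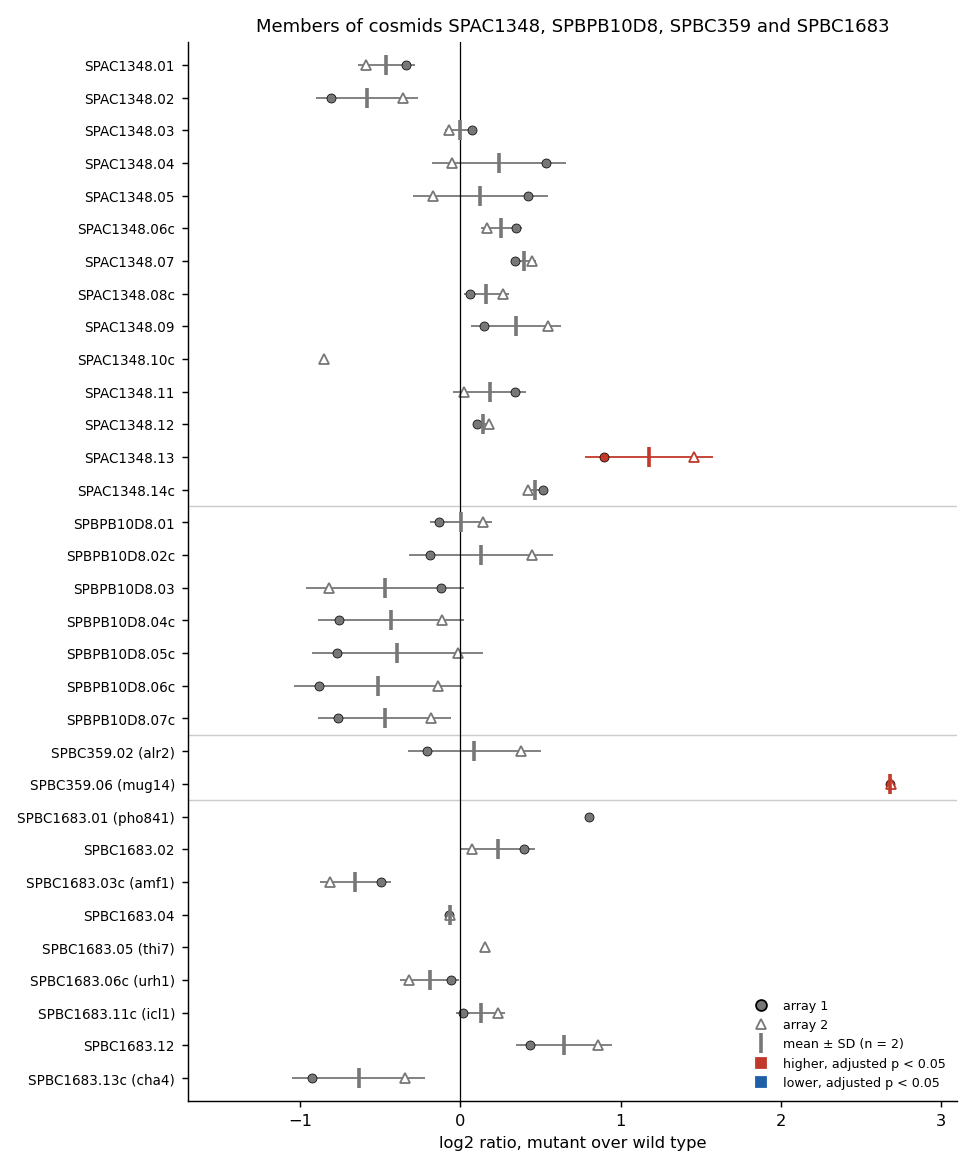
Log2 ratio of mutant over WT (horizontal) for the 32 members of SPAC1348, SPBPB10D8, SPBC359 and SPBC1683, separated by grey lines, with array 1 as circles, array 2 as triangles and the mean ± SD of both as bars. Members with 1 symbol had a value on 1 array; mug14 lies far from the rest at 2.68, and SPBPB10D8.04c to SPBPB10D8.07c repeat one pattern.

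In SPBPB10D8 none of 7 members was called by limma, and none reached an unadjusted p of 0.05. The neighbours SPBPB10D8.04c, SPBPB10D8.05c, SPBPB10D8.06c and SPBPB10D8.07c gave almost one value, from -0.88 to -0.75 on array 1 and from -0.18 to -0.016 on array 2. Their means lay between -0.51 and -0.39 (limma adjusted p from 0.32 to 0.469). Array 1 alone would have put all 4 of them low, and array 2 near 0. SPBPB10D8.05c and SPBPB10D8.06c have the same length in the gene table (1140 bases) and each had a saturated spot. Whether the 4 features read each other's RNA was not tested, as no sequence was at hand, so they may not be 4 separate measurements. All 4 gave signals well above background in every channel. Ahead of them, SPBPB10D8.01 and SPBPB10D8.02c, which overlap by 129 bases, stood at 0.0060 ± 0.19 and 0.13 ± 0.45. SPBPB10D8.03, a pseudogene in the table, stood at -0.47 ± 0.49, with the lower value on array 2.

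**Figure D5:**
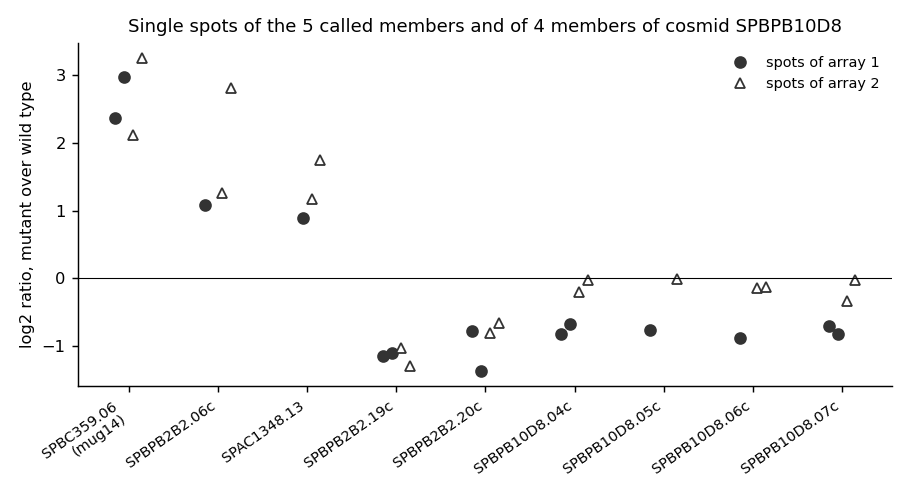
Log2 ratio of mutant over WT (vertical) of each spot kept, for the 5 called members and 4 members of SPBPB10D8, with spots of array 1 as filled circles and of array 2 as open triangles. The spots of each called member share a sign, SPBPB2B2.06c spans 1.08 to 2.81, and the SPBPB10D8 spots separate by array.

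The SPBC1683 and SPBC359 members hold the left-end genes that have a symbol. None of the 7 SPBC1683 members tested was called by limma. Of these, 3 had an unadjusted p under 0.05, 1 higher and 2 lower, beside 771 of all 4813 features. The highest of the 7 was SPBC1683.12, at 0.43 on array 1 and 0.86 on array 2 (0.65 ± 0.30, limma adjusted p = 0.163). The lowest was amf1 (SPBC1683.03c), named after a budding yeast ammonium transporter, at -0.50 and -0.81 (-0.65 ± 0.22, limma adjusted p = 0.142). Its signal was well above background in every channel, and it was called lower in 4 of 12 other settings. The gene cha4 (SPBC1683.13c), whose budding yeast counterpart activates serine and threonine breakdown, gave -0.93 and -0.34 (-0.63 ± 0.41, limma adjusted p = 0.19). Its mutant signal was above background on neither array. The WT signal passed on array 1 alone, at 1661 against a limit of 1659. Over the 12 other settings its ratio ran from -1.125 to -0.22, and it was called lower in 2 of them.

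The remaining enzymes and transporters of the left end were not called or not tested. The gene icl1, named after isocitrate lyase, was at 0.02 and 0.24 (0.13 ± 0.15), with every channel signal above background. The ratio of urh1, whose budding yeast counterpart splits uridine, was -0.06 and -0.32 (-0.19 ± 0.19), and that of SPBC1683.04 was -0.07 on array 1 and -0.06 on array 2. Neither strain was well above background for these 2 genes, nor for alr2, named after alanine racemase, which went from -0.21 on array 1 to 0.38 on array 2. For these dim genes a small ratio does not show equal expression. The gene thi7, named after a budding yeast thiamine transporter, was left out by code 3 on array 1, stood at 0.15 on array 2, and gave 0.49 on array 1 when such spots were kept.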

How the data were processed

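Ratios were measured on 2 arrays of 11520 spots, including 1548 control or unnamed spots. Per the file headers, the deposited scanner tables hold linear spot and background intensities for both channels and a quality code (a score of 0, 2 or 3, meaning not given). The authors also deposited log10 ratios, Lowess-normalised per the series design text; set against spots above background they correlated at 0.777 (array 1) and 0.946 (array 2) with log10 of the first over the second channel. Their medians were -0.01 and 0.02; values at -2 were treated as missing. The headers name no dye or strain. Mean background on arrays 1 and 2 was 1.80 and 753 in the first channel and 408 and 12.5 in the second. The higher background thus changed channel with the dyes. This would hold with either strain first on both arrays, so the background does not name the strain. Median signals were corrected with normexp (offset 50) and loess (1 curve per array), controls and code 3 spots at weight 0. Code 3 spots were left out, spots averaged, and log2 ratios tested with limma 3.58.1 (R 4.3.3) and Benjamini-Hochberg adjustment over 4813 features. A total of 9.33 degrees of freedom, 8.33 from the prior, means that the error comes mostly from the spread pooled over genes. Where the dimmer strain failed the background limit on each array, the fold was taken against its own signal or the dimmest passing signal after Aquantile scaling, whichever was higher; the number of arrays limits precision. The RefSeq gene table matched 3467 features by systematic name, 945 by symbol and 379 by synonym, left 165 unmatched, and gave only names, neighbours, lengths and overlaps. Another 12 settings were tried, and 0 columns of other samples were present. Named were members called, 2-fold on both arrays or among the 5 highest or lowest, with annotated groups; transporter and DUF999 groups could be applied only where the table gives a symbol, and further members were named after their values were seen. Members, lists and the background rule were chosen with earlier results of these data known. The test was checked on simulated data.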

Additional observations from a re-analysis of the deposited data

How the results depend on the processing

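The ratios pair the strains within each array, and with 1 comparison no further replicate block could be fitted. Over all features the 157 calls (112 higher, 45 lower) became 137 with a normexp offset of 0, 214 with dim features left out, 60 with plain background subtraction (49 and 11), 341 without subtraction (187 and 154), 365 with print-tip loess (194 and 171), 38 with median centring (33 and 5), 255 with code 3 spots kept (158 and 97), 370 with mean signals (193 and 177), 53 with the authors' deposited values (45 and 8), 264 with eBayes with trend (159 and 105), and 101 and 96 with the first or second printed set of spots alone, settings added after the data were seen. Members called higher fell from 3 to 1 with plain subtraction and with median centring. They fell to 2 with the authors' values and with either printed set alone, and rose to 4 without subtraction. Members called lower went from 2 to 4 without subtraction, with print-tip loess and with mean signals, and to 3 with eBayes with trend. They went to 1 with plain subtraction, with dim features left out and with either printed set alone. With median centring and the authors' values they went to 0. The members' median of 0.08 moved to -0.21 with median centring, which put the median of all features at -0.06. It was -0.03 with the first printed set. Leaving out 1 array, which leaves no test, gave medians from -0.0036 to 0.0027. The gene mug14 was called in all 12 settings. Causes were not tested.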

Other observations

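Features whose names hold pB10D8 or c359 without a gene number were not members. Of these, 5 had every channel signal above background and stood at -0.23 ± 0.11 (pB10D8_sanger_8), -0.03 ± 0.14 (pB10D8_sanger_10), 0.03 ± 0.017 (pB10D8_sanger_15), -0.16 ± 0.089 (c359_sanger_9) and 0.18 ± 0.51 (c359_sanger_10), as mean log2 ratio ± SD over 2 arrays. The feature pB10D8_sanger_11Missing, above background in no channel, gave 1.83 on array 1 and -0.43 on array 2.

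The 2 spots of a member on one array differed by more than 1 on the log2 scale for 10 of the 51 members.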
